A study of Mus musculus with 32 samples.

Results

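The Schlafen genes are a family of interferon-inducible genes that lie side by side on mouse chromosome 11. Their members were taken by symbol, as Slfn1, Slfn2, Slfn3, Slfn4, Slfn5, Slfn8 and Slfn9, and all 7 had a row among the 23035 genes of the footprint tables. The study treated cultured neural stem cells (NSCs) from the ventricular-subventricular zone of male C57BL/6 mice, 8 to 12 weeks old, with IFN-β or with vehicle, which was bovine serum albumin in buffered saline. The sources name no allele or transgene for these cultures. Treatment began 48 h after seeding and lasted 2 h or 14 h, with 4 cultures per treatment and time, and Ribo-Seq read the ribosome-protected fragments, 26 to 34 nucleotides long, beside total RNA of the same lysates. Each footprint count is the number of such fragments in the coding sequence of a gene, and CPM are counts scaled to the effective size of each library. Of the 10 markers fixed for NSCs and astroglia, among them Sox2, Nes, Vim and Fabp7, all 10 had footprints in each group, with a summed level of 10800 to 18200 CPM over the 16 footprint libraries.

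Schlafen proteins share a core that binds RNA, and several members have been shown to cleave transfer RNA or to shield it from cleavage. The short members Slfn1 and Slfn2 hold little more than this core and are known from T cells, where Slfn2 guards quiescence. The intermediate members Slfn3 and Slfn4 carry an added linker domain, and Slfn4 is known from myeloid cells. The long members Slfn5, Slfn8 and Slfn9 also carry a helicase-like part. Transcription after type I interferon passes from the receptor to ISGF3, a complex with Stat2 and Irf9 among its subunits that binds the interferon-stimulated response element (ISRE).

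The 7 members lay within 263.8 kb on chromosome 11 (GRCm38, chr11:82951349-83215154), with no other protein-coding gene between them. In the order of the chromosome, Slfn5 (chr11:82951349-82964840) on the plus strand was followed by Slfn9 (chr11:82978390-82991830) and Slfn8 (chr11:83002158-83020810) on the minus strand. Slfn2 (chr11:83065112-83070678), Slfn1, Slfn4 and Slfn3 followed on the plus strand. The promoters of 3 members, from 250 bases before to 50 bases after the start given by RefSeq, held the core of the ISRE, searched on both strands as GAAA and GAAA with any 2 bases between them. The stretches that hold it are shown because the carriers were the long ones among the 7 members, which were also the most abundant after IFN-β. They are written 5′ to 3′ on the strand of the gene, with the match in capitals.
Slfn5: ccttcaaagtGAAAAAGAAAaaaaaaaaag
Slfn9: atccgagcagTTTCGTTTTCccaaaaacaa
Slfn8: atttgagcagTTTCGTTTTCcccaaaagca
The Slfn5 stretch lay at chr11:82951937-82951966, the Slfn9 stretch at chr11:82991856-82991885 and the Slfn8 stretch at chr11:83020839-83020868 (GRCm38). The match began at -155 from the start of Slfn5 and at -45 from that of Slfn9, counted in bases. In Slfn8 it began at -48 from 1 of the 2 starts and at -136 from the other. The span of Slfn5 given above, from GENCODE, begins before its RefSeq start and contains the Slfn5 stretch. The same letters occurred in 3.44% of 32851 promoters of this length. The windows of Slfn2, Slfn1, Slfn4 and Slfn3 did not hold these letters, although Slfn2 also gained footprints after IFN-β. Neither did that of Slfn14, a long relative in the cluster but outside the 7 members. At 14 h the IFN-β to vehicle ratio of summed footprints was 4.04 for Slfn9, 33.9 for Slfn8 and 236 for Slfn5. For Slfn2, without the letters, it was at least 134, so the letters did not sort the members by response. The gamma-activated site, searched on both strands as TTC and GAA with any 3 bases between them, occurred in the promoter of no member and in 8.3% of all promoters. A match of letters is a description and does not show binding.

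IFN-β raised the footprints of Slfn9, Slfn8 and Slfn5 at 2 h and at 14 h, and those of Slfn2 at 14 h. At 2 h Slfn2 already had 4 to 8 footprints in each IFN-β library and 0 in each vehicle library, too few to test. Slfn9, already translated in vehicle-treated NSCs, rose by a similar amount at both times, whereas Slfn8 rose by far more at 14 h than at 2 h. Slfn5 and Slfn2 were at or near 0 footprints in vehicle libraries. Slfn1 had no footprint in any library, and Slfn3 and Slfn4 had too few for the filter of at least 10 counts in at least 4 libraries. Slfn5 at both times and Slfn2 at 14 h reached this filter only through their IFN-β libraries.

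Slfn9 was the most abundant member in vehicle-treated cells. At 2 h its level was 45.9, 26.3, 25.7 and 41.5 CPM in the vehicle libraries of replicates 2, 3, 5 and 6, and 131, 147, 119 and 119 CPM in the IFN-β libraries of the same numbers. At 14 h it was 38.7, 44.1, 45.4 and 39.5 CPM in the vehicle libraries of replicates 1 to 4, and 151, 156, 185 and 176 CPM after IFN-β. Every IFN-β library lay above every vehicle library of its time, and the lowest IFN-β value was more than double the highest vehicle value. The log2 fold change was 1.89 ± 0.19 (SE) at 2 h, with an adjusted p of 0.000289 from edgeR's quasi-likelihood test. At 14 h it was 1.99 ± 0.08 (SE), with an adjusted p of 3.48e-10 from the same test. The response at 14 h minus that at 2 h was 0.11 ± 0.22 (SE) on the log2 scale and did not pass the test of the difference (edgeR adjusted p = 0.732).

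Slfn8 started an order of magnitude lower and came close to Slfn9 by 14 h. Its vehicle levels at 2 h were 4.14, 2.79, 2.52 and 3.72 CPM, and the IFN-β levels were 36.4, 55.3, 38.9 and 27.03 CPM. At 14 h the vehicle libraries held 3.77, 3.79, 5.57 and 4.37 CPM and the IFN-β libraries 148, 132, 164 and 149 CPM. The vehicle libraries of the 2 times overlapped, whereas all 14 h IFN-β libraries lay above all 2 h IFN-β libraries. The share of all genes with such a gap between the times was not computed. The 2 times also come from sets of cultures with partly different replicate numbers. The log2 fold change was 3.56 ± 0.25 (SE) at 2 h (edgeR adjusted p = 2.42e-05) and 5.07 ± 0.11 (SE) at 14 h (edgeR adjusted p = 4.13e-13). The response at 14 h exceeded that at 2 h by 1.52 ± 0.31 (SE) on the log2 scale, and this difference passed the test (edgeR adjusted p = 0.00149).

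Slfn5 was close to silent in vehicle libraries. At 2 h the raw counts were 0, 0, 1 and 0 in the vehicle libraries and 38, 36, 26 and 14 in the IFN-β libraries, which is 4.80, 7.35, 3.63 and 2.32 CPM. The ratio of the summed counts was 138, with a 95% counting interval from 24.2 to 5480 by the exact binomial method, since a single vehicle footprint stands below it. At 14 h the vehicle libraries held 3, 1, 4 and 0 footprints and the IFN-β libraries 132, 385, 418 and 502, or 44.3, 55.1, 61.9 and 53.8 CPM. The groups did not overlap at either time. Each 14 h IFN-β library exceeded the highest 2 h IFN-β library, a gap for which no share over all genes was computed. The test of the difference between the responses at the 2 times was not passed (edgeR adjusted p = 0.83), and with so few vehicle footprints its size was not resolved. The edgeR adjusted p was 0.000422 at 2 h and 6.16e-11 at 14 h, where the log2 fold change was 7.76 ± 0.27 (SE). Slfn5 passed the filter only through its IFN-β libraries, so nothing is read from these p-values beyond the counts.

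Slfn2, the smallest of the induced members, had 0 footprints in all 8 vehicle libraries. At 2 h the IFN-β libraries held 8, 4, 7 and 5 footprints, which did not reach the filter. Against a floor of 3 counts over the vehicle group this was at least 9.65-fold higher. At 14 h the IFN-β libraries held 36, 83, 87 and 100 footprints, or 12.1, 11.9, 12.9 and 10.7 CPM, at least 134-fold higher than the same floor (edgeR adjusted p = 1.91e-08). Slfn2 passed the filter at 14 h only through these libraries, so nothing is read from this p-value beyond the counts. The level of Slfn2 varied little between the cultures of a time, with a mean of 0.908 ± 0.0994 CPM (SD, n = 4) at 2 h and 11.9 ± 0.891 CPM (SD, n = 4) at 14 h.

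**Figure D1:**
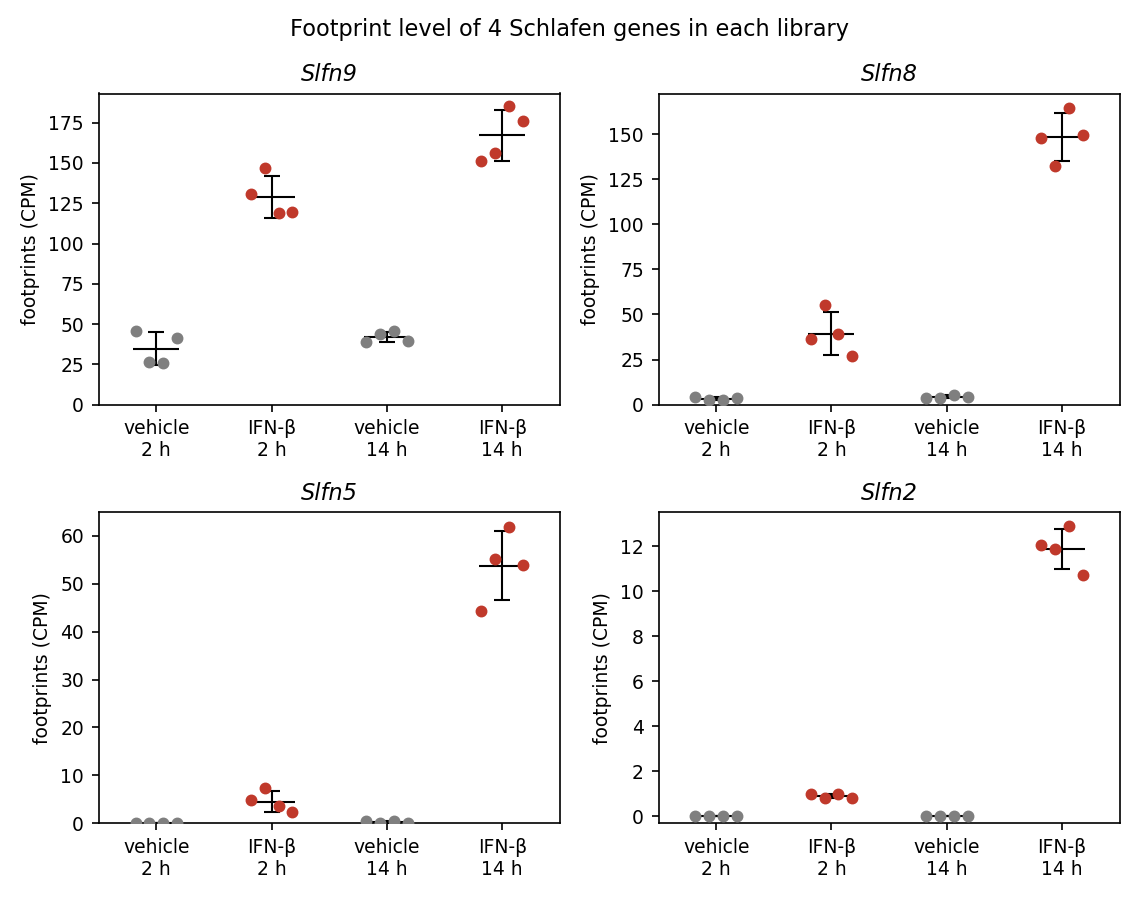
Footprint level (CPM, linear axes that differ between panels) of Slfn9, Slfn8, Slfn5 and Slfn2 in each of 4 libraries per group. Points are libraries, and the black dash and bars are the mean and SD. IFN-β libraries (red) lie above the vehicle libraries (grey) of their time in all 4 panels, and the IFN-β levels of Slfn8, Slfn5 and Slfn2 are far higher at 14 h than at 2 h. The 2 times come from sets of cultures with partly different replicate numbers.

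The remaining members stayed at the limit of the depth. Slfn4 had 0 footprints in all 8 vehicle libraries, 1 in a single IFN-β library at 2 h, and 0, 2, 2 and 7 in the IFN-β libraries of replicates 1 to 4 at 14 h. The summed 11 footprints at 14 h were at least 4.82-fold above the floor, but the groups overlapped. Slfn3 had 3 footprints over the vehicle libraries and 1 over the IFN-β libraries at 2 h, and 4 and 10 at 14 h, of which 7 fell in the IFN-β library of replicate 2. Slfn1 had 0 in all 16 footprint libraries, which allows up to 0.115 CPM in the IFN-β groups and 0.0877 CPM in the 14 h vehicle group. These limits cover counting error only.

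Across all genes tested, 5.25% of 12104 were called higher at 2 h and 26.2% of 12113 at 14 h, at an adjusted p under 0.05, beside 26.3% called lower at 14 h. Slfn8 and Slfn9 were the members that passed the filter in vehicle and in IFN-β libraries, and both were called at both times. Slfn5 and, at 14 h, Slfn2 passed it only through the IFN-β libraries, so their counts of calls are not set against this share. All IFN-β libraries lay above all vehicle libraries in 7.77% of the genes tested at 2 h and in 22.4% at 14 h. The response differed between the times, with the higher one at 14 h, in 15.4% of 12508 genes, and Slfn8 was among them. Slfn2 was tested there too, but without any vehicle footprint edgeR could not resolve its difference (log2 3.67, SE 4050). When the replicate number was added as a block, genes called in either direction numbered 3538 in place of 878 at 2 h, and 6941 in place of 3866 for the difference between the times. The same members were called with and without the block in all 3 footprint comparisons.

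The make-up of the family's footprints shifted with treatment. Slfn9 held 88.0% to 91.7% of all Schlafen footprints in the 8 vehicle libraries. After 2 h of IFN-β its share was 69.8% to 79.8%, and after 14 h it was 42.6% to 45.0%. The share of Slfn8 went from 7.87% to 10.8% in vehicle libraries to 18.1% to 26.3% at 2 h and 37.1% to 41.5% at 14 h. Slfn5 made up 12.5% to 15.4% and Slfn2 2.74% to 3.40% at 14 h of IFN-β. The summed level of the 7 members was 28.5 to 51.6 CPM in vehicle libraries, 150 to 211 CPM after 2 h and 355 to 425 CPM after 14 h of IFN-β.

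**Figure D2:**
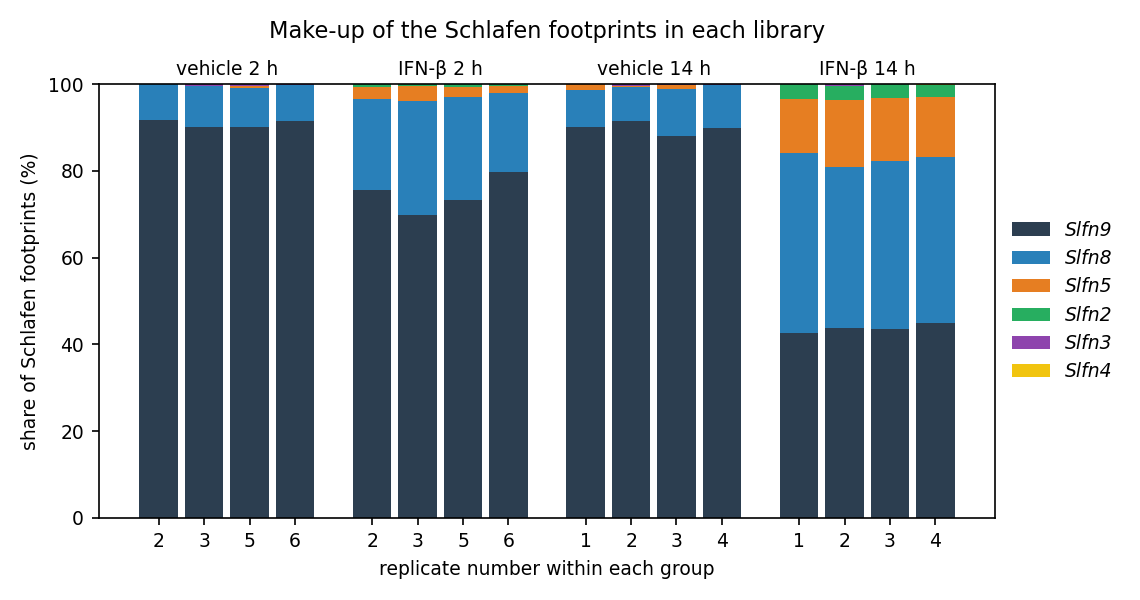
Share of each member in the summed footprints of the 7 Schlafen genes (percent), with 1 bar per library and replicate numbers below. Slfn9 (dark) holds 88.0% to 91.7% of each vehicle bar and 42.6% to 45.0% of each bar at 14 h of IFN-β, where Slfn8 (blue) holds 37.1% to 41.5%.

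Whether members responded by different amounts was tested within each library, as the log2 ratio of Slfn8 to Slfn9 with 0.5 CPM added to each. These were the only members with at least 3 counts in every library, so 1 pair was tested at each of the 2 times. The ratio was -3.19 ± 0.15 (SD, n = 4) in vehicle libraries and -1.74 ± 0.31 (SD, n = 4) after IFN-β at 2 h. At 14 h it was -3.13 ± 0.20 (SD, n = 4) in vehicle libraries and -0.17 ± 0.09 (SD, n = 4) after IFN-β. The treated libraries lay above the vehicle libraries by 1.45 at 2 h and 2.96 at 14 h on the log2 scale, with no overlap. The two-sided exact permutation p was 0.0286 at each time, the smallest that 4 against 4 libraries can give, and the value adjusted over both tests was also 0.0286. Within replicate pairs the differences were the same, but the exact sign-flip p was 0.125, the smallest that 4 pairs allow, so the paired test did not pass.

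**Figure D3:**
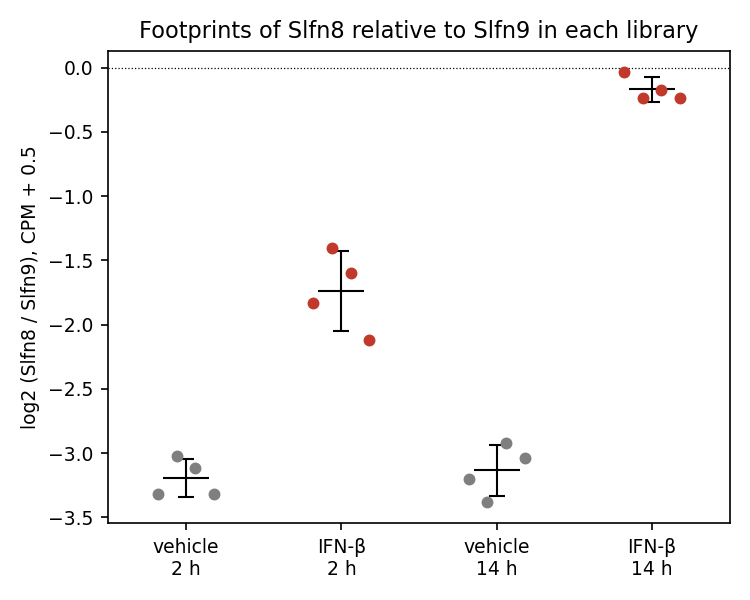
Log2 ratio of Slfn8 to Slfn9 footprints (CPM + 0.5) in each library, with the mean and SD per group of 4. The dotted line marks equal levels. Vehicle libraries average -3.19 and -3.13, and the IFN-β libraries average -1.74 at 2 h and -0.17 at 14 h.

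Slfn8 and Slfn9 have closely related coding sequences of equal length, which bears on how their footprints are told apart. Of all windows of 30 bases in the coding sequence of Slfn9, 22.4% occurred without mismatch in Slfn8 and 65.3% with at most 2 mismatches. A further relative, the pseudogene Slfn10-ps on chr11:83028130-83040042, held 29.6% of the Slfn9 windows exactly. In vehicle libraries the Slfn8 count was 8.60% to 12.3% of the Slfn9 count, so the part of these few Slfn8 counts that are footprints of Slfn9 cannot be told apart. After IFN-β the Slfn8 count was 22.6% to 37.6% of that of Slfn9 at 2 h and 84.7% to 97.6% at 14 h. In the other direction, 22% of the Slfn8 windows occurred without mismatch in Slfn9. The part of the Slfn9 counts that are footprints of Slfn8 cannot be told apart either, which bears on the fold changes of Slfn9. With the counts of both genes summed, the log2 fold change was 2.14 ± 0.20 (SE) at 2 h and 2.76 ± 0.08 (SE) at 14 h (edgeR adjusted p = 0.000159 and 7.42e-12). Slfn5 had no window of 30 bases in common with another gene. Slfn2 shared 14.3% of its windows with other genes, Slfn3 40.5% and Slfn4 44.9%, so the few counts of Slfn3 and Slfn4 are uncertain in their source.

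Levels between members were compared per kilobase of coding sequence. In vehicle libraries at 14 h the order was Slfn9 with 15.4 ± 1.21, Slfn8 with 1.60 ± 0.309 and Slfn5 with 0.107 ± 0.103 CPM per kb (SD, n = 4). After 14 h of IFN-β, Slfn9 reached 61.2 ± 5.86 and Slfn8 54.4 ± 4.82 CPM per kb (SD, n = 4), and these neighbours overlapped between libraries. Slfn5 followed with 20.3 ± 2.73 and Slfn2 with 10.5 ± 0.786 CPM per kb (SD, n = 4), apart from each other and from the long pair by more than their spread. Slfn4 and Slfn3 were far lower, with 0.185 and 0.172 CPM per kb, and did not differ beyond their spread. After 2 h of IFN-β the order was Slfn9 with 47.3, Slfn8 with 14.4, Slfn5 with 1.71 and Slfn2 with 0.801 CPM per kb.

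**Figure D4:**
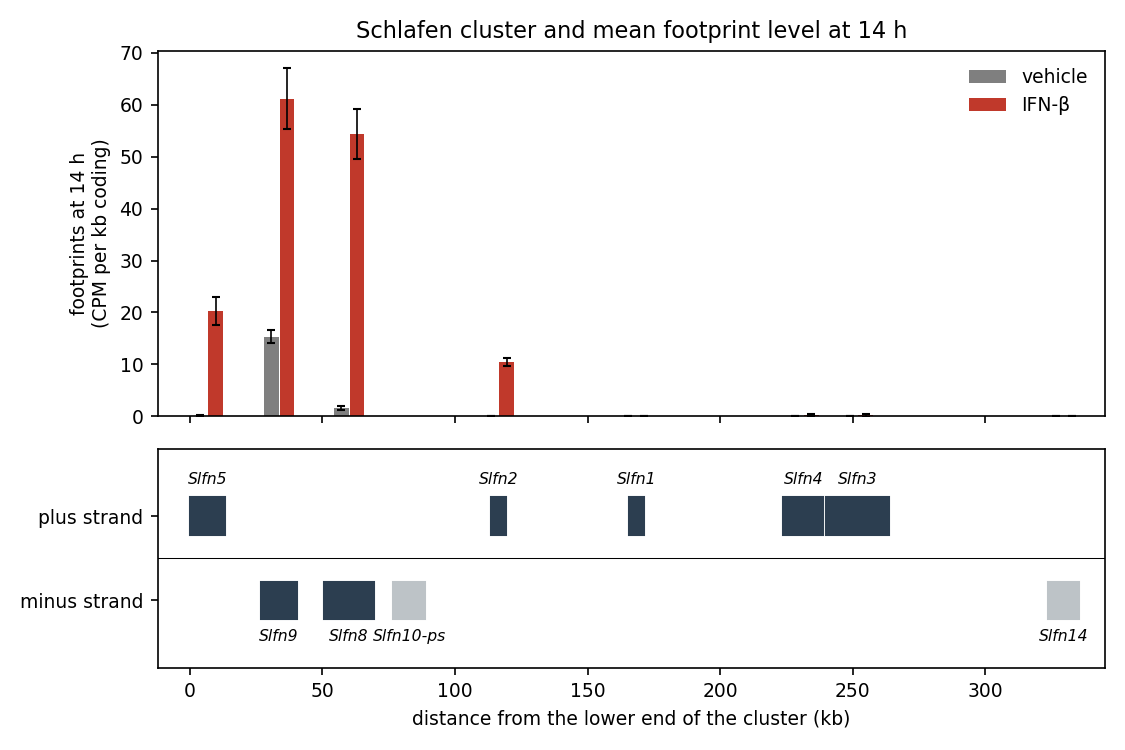
Lower panel: the Schlafen cluster to scale, as distance in kb from its lower end, with the 7 members dark and Slfn10-ps and Slfn14 pale. Upper panel: mean footprint level at 14 h (CPM per kb of coding sequence, bars start at 0, error bars SD of 4 libraries). Slfn5, Slfn9, Slfn8 and Slfn2, which lie next to each other apart from the pseudogene, carry the footprints, from 10.5 to 61.2 CPM per kb after IFN-β.

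Genes just outside the cluster were read beside the members. Among the nearest protein-coding genes on each side, Nle1, Ap2b1 and Rasl10b had enough footprints to test, and edgeR called none of them at 2 h, where the log2 fold changes were 0.18, 0.05 and 0.03 and the unadjusted p-values 0.456, 0.552 and 0.913. At 14 h Rasl10b, at 122.4 kb from the cluster, rose with a log2 fold change of 1.34 ± 0.27 (SE). Ap2b1, at 12.3 kb, rose by 0.13 and Nle1 fell by 0.28 on the log2 scale. Over all genes tested, 878 of 12104 were called in either direction at 2 h and 6363 of 12113 at 14 h. No contrast with the cluster is read from these few genes.

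Some of the genes that carry the interferon signal rose in the same libraries. Of Ifnar1, Ifnar2, Jak1, Tyk2, Stat2 and Irf9, 3 of 6 were called higher at 2 h and 5 of 6 at 14 h. The share of all genes tested that were called higher was 5.25% at 2 h and 26.2% at 14 h. Irf9, the DNA-binding subunit of ISGF3, rose by 4.49 at 2 h and 5.75 at 14 h on the log2 scale, and its subunit Stat2 rose by 4.03 and 4.63. The median over all genes tested was -0.02 at 2 h and 0.00 at 14 h. Jak1, a kinase of the type I receptor, rose at both times, by 0.93 and 0.37, whereas the receptor chain Ifnar1 had log2 fold changes of -0.08 and -0.07 and was not called. The other receptor chain, Ifnar2, rose by 0.49 at 14 h, and Tyk2, the other kinase, by 0.81. The difference between the times was itself called for Irf9, with 1.25 ± 0.28 (SE), for Stat2, with 0.60 ± 0.19 (SE), and for Tyk2, with 0.89 ± 0.20 (SE), each with the higher response at 14 h, as it was for Slfn8. For Jak1 it was called in the opposite direction, with -0.55 ± 0.10 (SE).

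Because several Schlafen proteins act on transfer RNA, a list of genes for its cleavage and protection was followed as well. Of the 5 genes, Ang, the secreted nuclease angiogenin, did not pass the filter. None of the other 4 was called at 2 h, 0 of 4 also at an unadjusted p under 0.05, where their log2 fold changes lay between 0.01 and 0.10 (the smallest edgeR adjusted p was 0.887). At 14 h Rnh1, the ribonuclease inhibitor, rose by 0.48, while Nsun2, a methyltransferase that modifies transfer RNA, fell by 0.62 and Elac2, which trims its 3′ end, fell by 0.37 on the log2 scale. Trdmt1 had a value of -0.37 that did not pass the test (edgeR adjusted p = 0.094). Since 26.2% of all genes tested were called higher at 14 h and 26.3% lower, nothing about transfer RNA is read from these few calls.

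The 5 genes whose footprints followed Slfn9 most closely over the 16 libraries, among 10313 genes that averaged 50 counts or more per library, were Ddx24, Slfn8, Isg20, Samd9l and Rnf31. Their Pearson correlations with Slfn9 on the log2 scale ran from 0.978 for Ddx24 to 0.968 for Rnf31, and Slfn5 ranked 101st with 0.912. All 16 points share the treatment and time of the libraries, so these values describe likeness only. Slfn8 also shares coding sequence with Slfn9, and the part of shared reads in their likeness was not tested. Ddx24, a putative RNA helicase, had means of 120 and 222 CPM in vehicle and IFN-β libraries at 2 h and 131 and 284 CPM at 14 h. Samd9l, an interferon-induced gene of antiviral defence, went from 4.09 to 114 CPM at 2 h and from 3.67 to 482 CPM at 14 h.

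Schlafen genes are well known from blood cells, so markers of such cells were read in the same libraries. Of 10 markers of microglia and macrophages, Aif1, Cx3cr1 and Tyrobp had 0 footprints in all groups, and the summed level of the list was 11.9 to 41.6 CPM in vehicle and 15.9 to 45.4 CPM in IFN-β libraries, most of it from Itgam and P2ry12. At 14 h these differed in direction, since P2ry12 had 251 footprints over the vehicle and 586 over the IFN-β libraries, and Itgam 1098 and 502. Of 7 markers of T and B cells, Cd3e and Cd3d had 0 footprints in all groups. The summed level of that list was at most 0.425 CPM in vehicle libraries and 2.37 to 3.15 CPM after 2 h of IFN-β, carried by Lck with 72 footprints against 8 in vehicle libraries. At 14 h the list reached 0.429 to 2.01 CPM after IFN-β, with 25 Lck footprints. The part of Lck and P2ry12 in the Schlafen values was not tested. Since whole cultures were lysed, more cells that use a gene and more footprints per cell cannot be told apart.

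The total RNA tables were not read as a measure of Schlafen mRNA. Actb, a gene that every cell uses, held 801970 footprints over 16 libraries but 4432 reads of total RNA, and Vim held 545529 and 521. Of 921 pairs of a protein-coding gene with at least 1000 footprints and a non-coding gene whose exons overlap it on the other strand, 73.0% had more total RNA reads in the non-coding gene. Protein-coding genes held 64.7% of all total RNA counts, beside 97.5% of all footprint counts. The libraries were made with a kit that keeps the strand, and the strand setting of the counting is not given in the sources used here, so reads from a gene and from its partner on the other strand cannot be told apart in these tables.

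Slfn5 is such a gene, since exons of Slfn5os on the minus strand (chr11:82942341-82960681) overlap its exons by 559 bases and those of Unc45b by 151. Slfn5 itself held 0 to 6 total RNA reads in each of the 16 libraries. Slfn5os held 5, 4, 0 and 1 reads in the vehicle libraries at 2 h and 31, 164, 56 and 14 after IFN-β. At 14 h it held 0, 2, 0 and 4 reads in the vehicle libraries and 80, 90, 162 and 55 after IFN-β. IFN-β groups lay above vehicle groups at both times, and Slfn5os passed the filter only through the IFN-β libraries. The log2 fold change of Slfn5os was 4.45 ± 0.80 (SE) at 2 h (edgeR adjusted p = 0.0217) and 5.44 ± 0.49 (SE) at 14 h (edgeR adjusted p = 1.45e-06). No member passed the filter in total RNA at 2 h, where 0.722% of 11639 genes were called higher. At 14 h Slfn2 alone passed, with 35, 38, 25 and 28 reads after IFN-β and 2, 1, 0 and 0 in vehicle libraries, a ratio of 31.4 with a 95% counting interval from 10.5 to 155 (edgeR adjusted p = 1.24e-05). It passed only through the IFN-β libraries, so nothing is read from this call beside the 3.47% of 7520 genes called higher. Slfn9 had 50 reads over the IFN-β libraries and 7 over the vehicle libraries at 2 h, and 15 and 5 at 14 h.

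**Figure D5:**
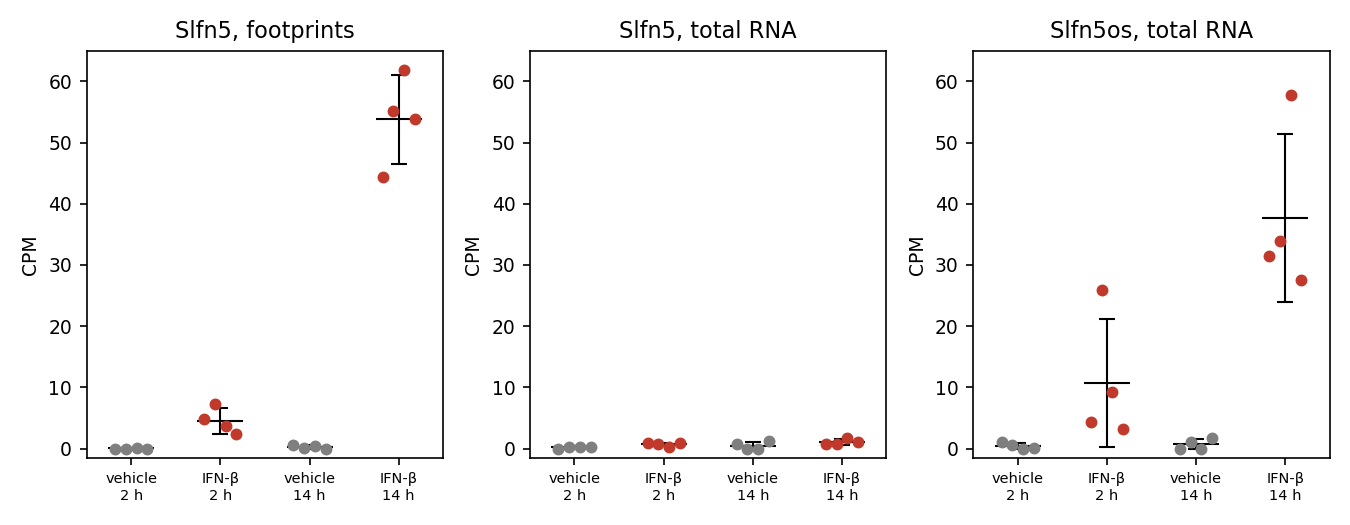
Level (CPM, same axis in all panels) of Slfn5 in footprints, of Slfn5 in total RNA and of its overlapping partner Slfn5os in total RNA, with 4 libraries per group and the mean and SD in black. In total RNA, Slfn5 stays below 2 CPM in each library while Slfn5os averages 10.7 CPM at 2 h and 37.7 CPM at 14 h of IFN-β.

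Translational efficiency (TE), the footprint response beyond that of total RNA, inherits these limits and is given only as computed. At an adjusted p under 0.1, TE was called higher in 0.581% of 14115 genes at 2 h and 4.43% of 13447 at 14 h. Slfn5 and Slfn2 reached the filter only through the IFN-β libraries, so their calls are not set against these shares. Slfn5 was called higher at 2 h (log2 4.83 ± 1.20 SE, edgeR adjusted p = 0.0939) and at 14 h (6.97 ± 1.34 SE, edgeR adjusted p = 0.00142), and Slfn2 at 14 h (edgeR adjusted p = 0.0549). The 2 h call of Slfn5 held without the libraries of IFN-β replicate 6 but not when those of any of the other 7 cultures, footprints and total RNA together, were left out, and the call of Slfn2 did not hold without vehicle replicate 1 or 2, where Slfn5 alone was called. With the replicate block, no member was called at 2 h and Slfn5 alone at 14 h. Slfn8 and Slfn9 were not called by edgeR, with values of 1.97 ± 0.78 (SE) and -0.70 ± 0.60 (SE) at 2 h and 2.04 ± 1.31 (SE) and 0.84 ± 0.81 (SE) at 14 h. By limma-voom Slfn8 was called higher at 14 h, with 2.71 (limma-voom adjusted p = 0.00248). With the total RNA reads of Slfn5os counted to Slfn5, a setting added after the data were seen, the TE value of Slfn5 was 2.38 (edgeR adjusted p = 0.844) at 2 h and 2.96 (edgeR adjusted p = 0.085) at 14 h.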

How the data were processed

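The authors deposited raw read counts per gene: footprints in coding sequences and total RNA over genes, in separate tables per time. Reads were trimmed with Trim Galore 0.4.4, mapped with Bowtie 0.12.7 to the mouse transcriptome (mm10, Ensembl), and counted per gene after duplicate removal, per the study's methods and the submitters' processing notes. Library totals were 2956297 to 10505108 for footprints, 3992402 to 7877753 for total RNA at 2 h and 1370008 to 2737111 at 14 h. In total RNA, the TMM factor was 0.434 for vehicle replicate 5 at 2 h and 0.499 for vehicle replicate 3 at 14 h. It was 0.97 to 1.33 in the other total RNA libraries. Counts were tested with edgeR 4.0.16 (R 4.3.3, quasi-likelihood test, TMM, at least 10 counts in at least 4 libraries, Benjamini-Hochberg over all genes tested). Each fit was first run on simulated counts, with the same dispersion for all genes and no pairing of replicates. That run does not bear on paired libraries or on genes without vehicle counts. DESeq2 1.42.0 and limma-voom 3.58.1 were alternatives, beside other scalings and filters, the replicate number as a block, and each library left out. TE was the interaction of library kind and treatment. The labels give shared replicate numbers, and same-numbered footprint libraries deviated together (r from 0.328 to 0.812 at 2 h and 0.192 to 0.418 at 14 h), so the numbers were taken to pair footprint samples; in total RNA r was -0.477 to 0.390 and -0.012 to 0.258. Replicates were cultures from different mice, per the study's methods. The rule for named genes was all members, their relatives, the lists and neighbours above, and the 5 genes most like the most abundant member. Some genes of these lists are not reported here. Members and lists were chosen with earlier results of these data known. Coordinates and coding sequences are from GENCODE on GRCm38, and promoters from RefSeq (GRCm38.p6). Intervals and floors cover counting error only.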

Additional observations from a re-analysis of the deposited data

Results flagged for a closer look

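The footprint response of Slfn8 differed between the times, with 1.52 on the log2 scale more at 14 h than at 2 h (SE 0.31). In the libraries its level after IFN-β was 27.03 to 55.3 CPM at 2 h and 132 to 164 CPM at 14 h. The value lay between 1.38 and 1.72 over all alternatives.

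In total RNA at 14 h, the lowest of the 4 IFN-β libraries for Slfn2 lay apart from the other libraries, with a gap of 0.891 of the whole range of the group. Its level was 8.92 CPM beside a highest level of 14.3 CPM. Of the 14 groups of 4 libraries looked at in this way, this was the only such case, and chance alone gives it in about 5% of groups.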

How the results depend on the processing

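The members called in footprints numbered 2 to 4 at 2 h and 3 to 5 at 14 h under the alternatives run, beside 3 and 4 in the main setting. They were also 3 and 4 whichever library was left out. In the main setting, genes called in either direction numbered 878 of 12104 at 2 h and 6363 of 12113 at 14 h. With the replicate block they numbered 3538 and 7614. The member counts include Slfn5 and, at 14 h, Slfn2, which passed the main filter only through the IFN-β libraries. The genes tested with all libraries were kept when a library was left out, so no member could fall below the filter in those fits. Without a filter Slfn2 was called at 2 h and Slfn4 at 14 h as well, and under a filter of 50 counts on average Slfn5 at 2 h and Slfn2 at 14 h were not tested. For the difference between the times, DESeq2 and limma-voom each called 2 members (Slfn2, Slfn8) in place of 1, and leaving out a library gave 1. In total RNA, no filter gave 1 member at 2 h (Slfn9) in place of 0 and 2 at 14 h (Slfn2, Slfn8) in place of 1, the filter of 50 counts on average gave 0 at 14 h, and leaving out a library gave 0 and 1. For TE at 2 h, total counts alone, the filter of 50 counts on average, the replicate block and the added reads of Slfn5os each gave 0 in place of 1, and leaving out a library gave 0 to 1. For TE at 14 h, the filter of 50 counts on average gave 0 and the replicate block 1 in place of 2, limma-voom gave 3 (Slfn2, Slfn5, Slfn8), and leaving out a library gave 1 to 2. In either direction, the main setting called 3866 of 12508 genes for the difference between the times. In total RNA it called 93 of 11639 at 2 h and 472 of 7520 at 14 h. For TE it called 115 of 14115 and 1128 of 13447. A stricter filter tests fewer genes. Otherwise the cause of the changed counts was not tested.

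The log2 ratio of Slfn8 to Slfn9 differed by 1.45 and 2.96 also within replicate pairs, where the exact sign-flip p of 0.125 is the smallest that 4 pairs allow. Without a library it was 1.34 to 1.58 at 2 h and 2.88 to 3.04 at 14 h, where the smallest exact p that 3 against 4 allows is 0.0571. With 0.1 CPM added the difference was 1.59 and 3.08.

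Over the libraries left out, the sign turned only for Slfn9 in the difference between the times (-0.055 to 0.23), for Slfn5 in the same (-0.29 to 1.79) and for Slfn8 TE at 14 h (-1.96 to 2.56), none of which was called by edgeR. The unresolved difference between the times of Slfn2 was not followed in this way. The replicate block changed no other call. With Slfn8 and Slfn9 summed, chosen after the data were seen, the summed row was called at both times, beside 876 of 12103 and 6362 of 12112 genes called in either direction. Total RNA counts of the members, 0 to 38 reads per library, limit what TE can show.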

Other observations

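The relatives outside the 7 members held at most 3 footprints in any group. Slfn14, a long member known from platelets and blood cells at the far end of the cluster, had 1 footprint over the vehicle libraries at 2 h and 3 at 14 h, and 0 after IFN-β at both times. Slfnl1, on chromosome 4, had 1 footprint in all. The pseudogene Slfn10-ps has no coding sequence and no row among the footprints, and in total RNA it held 7 reads in vehicle and 14 in IFN-β libraries at 2 h, and 2 and 5 at 14 h.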
